A study of Homo sapiens with 4 samples.

Results

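The clustered protocadherin genes on 5q31 were described in lists of regions that gained accessible DNA in K562 cells treated with anthracyclines. All listed regions that overlapped chromosome 5 between 140.16 and 140.90 Mb (GRCh37, an interval of 0.74 Mb) were taken, which gave 56 regions of 100205 in any list. The interval was divided into alpha (140.16-140.40 Mb), beta (140.42-140.63 Mb) and gamma (140.70-140.90 Mb), with the stretches between them kept apart. Of the 56 regions, 25 lay in alpha, 4 in beta, 24 in gamma, 3 between beta and gamma and 0 between alpha and beta.

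Accessible DNA was measured by ATAC-seq, in which a transposase inserts sequencing adapters into open chromatin. K562 is an established human myeloid leukaemia line. Per the labels, cells were untreated (control) or were treated for 4 h with 10 µM of doxorubicin (Doxo), 10 µM of its N,N-dimethyl form (diMe-Doxo) or 20 µM of aclarubicin (Acla). There was 1 GEO sample per group, and each drug's list held 2 treated libraries and the same 2 control libraries. Whether paired libraries were grown as separate cultures is not stated in the labels, so p-values measure only the spread between these libraries, which may be technical. Reads within the listed regions totalled 3534855 to 7266289 per treated library. The 2 control libraries held 248362 and 253175 reads in the Doxo regions and 137456 and 120492 in the diMe-Doxo regions. In the Acla regions they held 147816 and 128353. These totals are over different sets of regions, and the full depth is unknown. The lists hold gains only, which leaves no way to check the cell type by its markers.

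Doxorubicin intercalates into DNA, and it is known both to trap topoisomerase II at DNA breaks and to evict histones. DiMe-Doxo differs from it by methylation of the sugar amine, and Acla carries a chain of several sugars. Both are known as histone-evicting drugs that cause few or no breaks.

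Clustered protocadherins are cadherin-family cell adhesion proteins, best known from neurons, where each cell uses only a few of them and thereby gains a surface identity. In the alpha and gamma clusters each variable first exon has its own promoter and is spliced to constant exons shared by its cluster, whereas each beta gene is a single exon. Silent promoters are usually methylated, and active ones bind CTCF, a DNA-binding protein that helps to bring enhancer and promoter together. Most of these promoters carry a conserved box with the core CGCT.

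RefSeq (GRCh38.p14) names 15 protein-coding alpha, 16 beta and 22 gamma genes, and promoter sequences (250 bases before to 50 after the start) were matched for 13, 14 and 20 of them. The annotation is on another build than the lists, so no region was assigned to a gene and a promoter below is not a region of the data. The sequences are shown to give the most common 8 bases in each of the 3 groups of promoters. In each group the 8 bases held by the most genes were searched in all promoters on both strands, and these bases, in capitals, were chosen by that count. Each window has 36 bases and lies on the plus strand before the start. The capitals fall at different places on the core CGCT, which in the beta windows is completed by the base after them. Whether the 3 groups differ in the box itself was not tested. Only genes that hold the capitals could be shown, so the likeness of the windows at the capitals was fixed by the choice. Of such genes, the first 4 in chromosome order whose window lay wholly before the start are given.
PCDHA1: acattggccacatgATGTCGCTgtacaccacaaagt
PCDHA2: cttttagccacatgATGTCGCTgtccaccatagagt
PCDHA4: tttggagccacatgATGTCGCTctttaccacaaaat
PCDHA5: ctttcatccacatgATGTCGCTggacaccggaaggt
PCDHB2: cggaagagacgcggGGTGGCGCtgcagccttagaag
PCDHB3: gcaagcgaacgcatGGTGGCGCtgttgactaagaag
PCDHB4: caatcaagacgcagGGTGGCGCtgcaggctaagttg
PCDHB7: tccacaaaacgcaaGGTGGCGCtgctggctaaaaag
PCDHGA1: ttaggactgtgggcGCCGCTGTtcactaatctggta
PCDHGB1: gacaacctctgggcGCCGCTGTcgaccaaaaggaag
PCDHGA7: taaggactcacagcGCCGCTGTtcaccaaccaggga
PCDHGB4: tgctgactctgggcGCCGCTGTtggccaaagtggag

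ATGTCGCT was present in 9 of 13 alpha promoters, in 0 beta and 0 gamma promoters and in 0.282% of the promoters of all 27305 genes. GGTGGCGC was present in 13 of 14 beta promoters, in none of the alpha or gamma ones and in 2.74% of all. GCCGCTGT was present in 11 of 20 gamma promoters, in none of the alpha or beta ones and in 1.98% of all. The core CGCT itself was present in 12 of 13 alpha, 14 of 14 beta and 20 of 20 gamma promoters, but also in 71.9% of all promoters. A TATA box (TATAAA) was present in 3 alpha, 1 beta and 2 gamma promoters and in 14% of all. The median GC content was 37.3% for alpha, 40.8% for beta and 47.3% for gamma promoters, against 58.7% for all.

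More regions of the interval were gained with Doxo than with either other drug. Doxo had 51 gained regions there covering 45.2 kb, diMe-Doxo 15 covering 19.4 kb and Acla 16 covering 19.3 kb. The number with Doxo was thus 3.40 times that with diMe-Doxo at an equal dose and time, where the ratio was 1.26 over the whole lists and 1.04 on chromosome 5. The 51 Doxo regions were 91.1% of the 56, beside 66.6% of all regions in any list. The 15 diMe-Doxo regions were 26.8%, beside 52.7%, and the 16 Acla regions were 28.6%, beside 61.2%. Of the 56 regions, 36 (64.3%) were listed for Doxo alone, a class that made up 29.5% of all regions, and 9 (16.1%) were listed for all 3 drugs, beside 28.7%. DiMe-Doxo alone accounted for 1 region, beside 4.97% of all, and Acla alone for 2, beside 13.8%. The remaining regions were 3 of Doxo with diMe-Doxo, 3 of Doxo with Acla and 2 of diMe-Doxo with Acla, the last class being 14.6% of all regions.

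**Figure D1:**
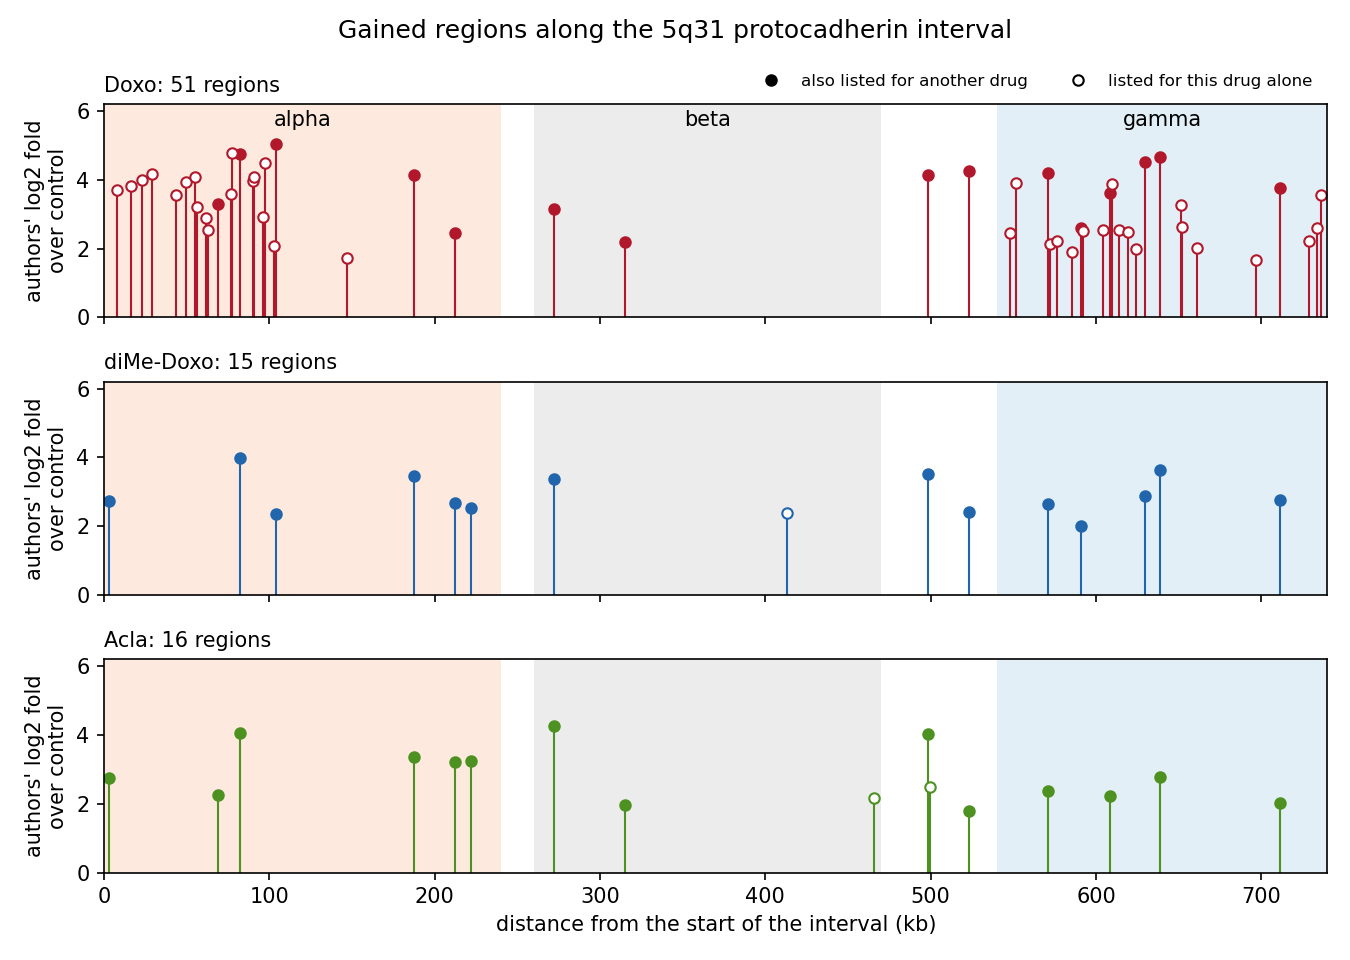
Each stem is a gained region, placed by its distance from the start of the interval (kb) and with its height the authors' log2 fold over control, for Doxo, diMe-Doxo and Acla from top to bottom. Open points are regions listed for that drug alone, and shading marks alpha, beta and gamma: Doxo regions crowd alpha and gamma, with 2 in beta.

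The density of Doxo regions was unequal along the interval. It was 95.8 regions per Mb in alpha, 9.52 in beta and 120 in gamma, against 46.0 in the 1 Mb before the interval and 45.0 in the 1 Mb after it. With diMe-Doxo the densities were 25.0, 9.52 and 25.0 per Mb, between flanks of 22 and 26. With Acla they were 25.0, 14.3 and 20.0 per Mb, between flanks of 15 and 16. In alpha and gamma Doxo stood at 2.11 and 2.64 times the density of its flanks, diMe-Doxo at 1.04 and 1.04 times, and Acla at 1.61 and 1.29 times. In beta the ratios were 0.209, 0.397 and 0.922, from 2, 2 and 3 regions. Against only the nearest 0.5 Mb on each side, where the density of Doxo regions was 60 per Mb, the Doxo ratios were lower, at 1.60 in alpha, 0.159 in beta and 2.0 in gamma. Over the whole interval the Doxo ratio was 1.51 with flanks of 1 Mb and 1.15 with flanks of 0.5 Mb, against 0.845 and 0.724 with diMe-Doxo. For Acla the ratios were 1.39 and 1.08. By covered length the drugs stood closer together, and the regions of diMe-Doxo and Acla in the interval were wider (medians of 1062 and 1000 bp, beside 724 bp with Doxo). The ratios of covered length to the flanks were 2.22 with Doxo, 1.66 with diMe-Doxo and 2.26 with Acla in alpha, and 2.63, 1.43 and 1.41 in gamma. In beta they were 0.352, 0.607 and 1.02. These ratios are descriptions without a test, since regions of the same libraries are not replicates.

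**Figure D2:**
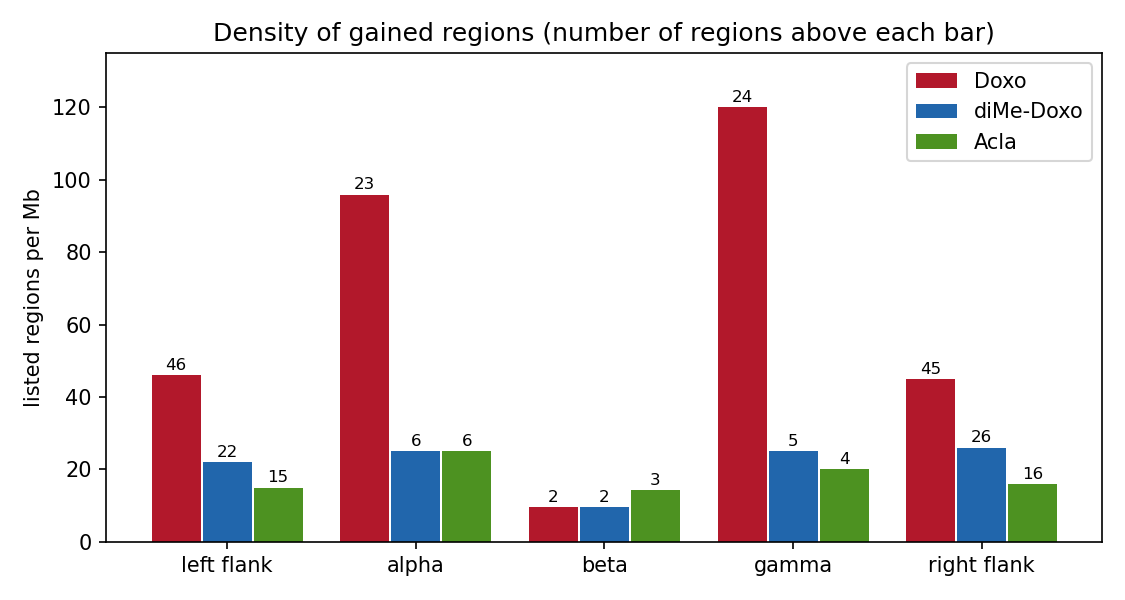
Bars give the number of listed regions per Mb for each drug in the flanking 1 Mb on either side and in alpha, beta and gamma, with the number of regions above each bar. The bars of Doxo reach 95.8 and 120 regions per Mb in alpha and gamma against 46.0 and 45.0 in the flanks, while the bars of diMe-Doxo lie between 9.52 and 26.

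The lean towards Doxo was shared by the neighbourhood and was not confined to the protocadherin genes. Doxo alone accounted for 54.0% of the 50 regions before the interval and 49.0% of the 51 after it, against 72.0% in alpha, 75.0% in gamma and 0% of the 4 in beta. On chromosome 5 as a whole the share was 20.7%. Regions of all 3 drugs made up 26% and 29.4% in the flanks, 12% in alpha and 12.5% in gamma. Of the diMe-Doxo regions in the interval 80.0% were also Doxo regions, and of the Doxo regions 23.5% were also diMe-Doxo regions, beside 62.8% and 49.7% over the whole lists. The lists share their controls, so overlap between them is given as a description only.

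**Figure D3:**
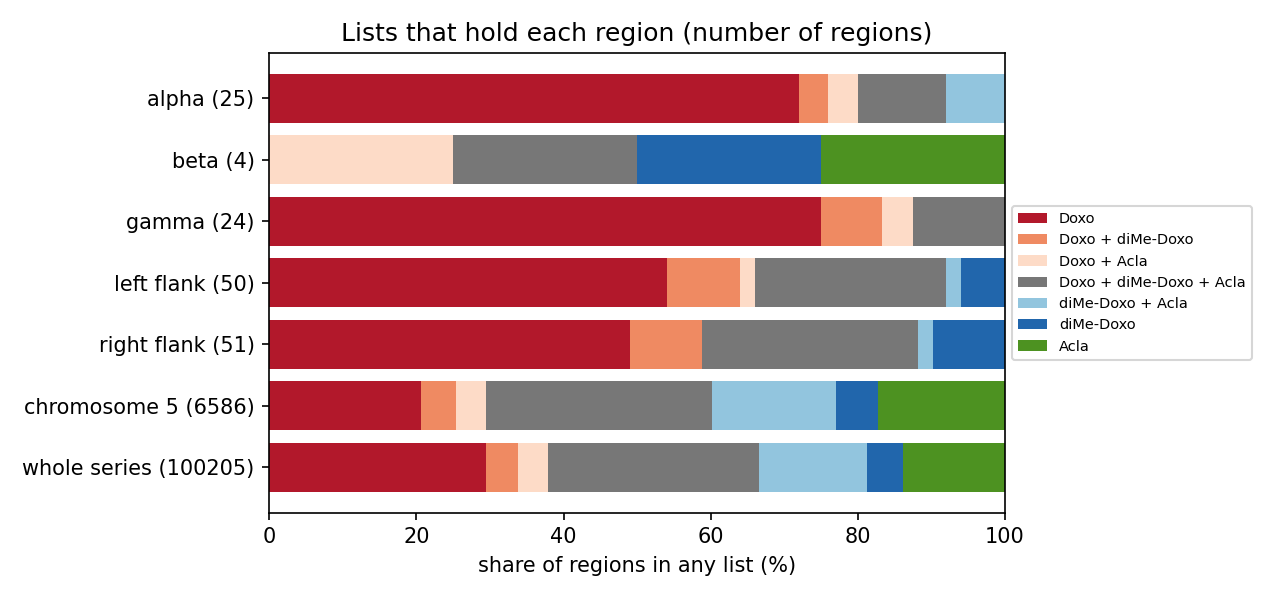
Each bar divides the regions of an interval, of chromosome 5 or of all lists by the drugs for which they were listed, as a share in percent, with the number of regions in parentheses. Regions of Doxo alone fill 72.0% of alpha and 75.0% of gamma, 54.0% and 49.0% of the flanks and 29.5% of all regions.

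In alpha, 23 regions were gained with Doxo and 20 of them fell into runs of short regions a few kb apart, most with almost no control signal. With neighbouring centres less than 10 kb apart, 4 regions spanned 21.5 kb at 140167576-140189103 and 16 spanned 61.1 kb at 140203208-140264277. Within the longer run the median distance between centres was 5.21 kb (range 0.893 to 7.77), and within the shorter one it was 6.27 kb (5.99 to 8.65). The longer stretch held 2 regions of diMe-Doxo and 2 of Acla, and the shorter one held 0 of either. All 20 Doxo regions in the runs lay outside control peaks, as did 82.6% of the whole Doxo list and 80.4% and 84.4% in the flanks. A peak had been called in both Doxo libraries at each of the 20, beside 63.4% of the list.

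In the longer alpha run the Doxo libraries held 7 to 81 reads per region (median 27.5) and 10 to 79 (median 33.0). Control reads were 1 in each library at 13 of its 16 regions. The authors' deposited table gave these 16 regions log2 folds of 2.09 to 5.05, with a median of 3.76, and the shorter run folds of 3.71 to 4.17. The lowest control value in the lists is 1 read, and a region without a read may stand at it, so that folds over such controls depend on this value.

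The region with the highest Doxo fold in the interval was in alpha at 140263525-140264277, with 76 and 56 Doxo reads, 25 and 25 with diMe-Doxo and 1 and 1 in the controls. Library depths differ, and on the scale of the controls, where reads are multiplied by the library's factor relative to the control factors of its list, these were 38.2 and 27.9 with Doxo against 5.05 and 5.21 with diMe-Doxo. The authors' log2 fold was 5.05 with Doxo (FDR, the false discovery rate, 1.68e-05) and 2.35 with diMe-Doxo (FDR 0.0527), and the region was not listed for Acla. The Doxo ratio rested on 2 control reads, and the pooled ratio of treated to control reads was 33.0 with an exact 95% counting interval of 8.97 to 276, which covers counting error only.

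The next highest Doxo fold in alpha was at 140237290-140238051, a region listed for Doxo alone. Its Doxo libraries held 56 and 54 reads, while both controls held 1. The log2 fold in the authors' deposited table was 4.78 (FDR 3.76e-05). The region at 140241714-140243127 was gained with all 3 drugs. Its control-scale reads were 40.7 and 39.3 with Doxo, 22.8 and 22.9 with diMe-Doxo, and Acla gave 26.9 and 21.5, while the controls held 1 and 2. It had the highest fold in alpha with diMe-Doxo and with Acla, at log2 values of 3.97 and 4.05 in the authors' deposited table, beside 4.75 with Doxo.

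Wider regions with control signal lay farther along alpha. The widest region of the interval, 3045 bp at 140345786-140348831, had 10 and 6 control reads and a peak in 1 control library. Its control-scale reads were 136 and 148 with Doxo, 94.2 and 86.2 with diMe-Doxo, and Acla gave 91.7 and 77.6. The authors' log2 folds were 4.14, 3.46 and 3.37. The region at 140305594-140308453 was a peak in both controls (40 and 12 reads) and was listed for Doxo alone, with 158 and 192 reads and an authors' log2 fold of 1.74 (FDR 0.0743). It lay just above the lower fold limit of the lists, which was 1.5, and its FDR was above 0.05.

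Toward the end of alpha a region was listed without Doxo. The one at 140380935-140382777 was listed for diMe-Doxo and Acla but not Doxo, with control-scale reads of 15 and 12.3 and of 27.3 and 17.5, and authors' log2 folds of 2.52 and 3.23. At 140371933-140372687 all 3 drugs were listed. Control-scale reads there were 7.54 and 3.49 for Doxo, 7.68 and 5.21 for diMe-Doxo and 10.5 and 8.01 for Acla. The Doxo entry was weak, with 15 and 7 reads, no called peak in either Doxo library and an authors' FDR of 0.0788. The region at 140162512-140163149, at the opposite edge of alpha, was likewise listed only for diMe-Doxo and Acla, with authors' log2 folds of 2.73 and 2.76. It and the region at 140380935-140382777 were the only regions of the 25 in alpha without a Doxo entry.

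Beta held 2 regions with Doxo and 2 with diMe-Doxo, fewer per Mb than the flanks, and 3 with Acla, near the density of its flanks. Of the 4 regions in any list, the one at 140431011-140433097, the widest of beta with 2086 bp, was gained with all 3 drugs. It had 30 and 24 Doxo reads, 97 and 61 with diMe-Doxo, 247 and 168 with Acla and 2 and 1 in the controls. On the control scale these were 15.1 and 12, 19.6 and 12.7, and 35.0 and 24.5, so Acla, at its higher dose, had the highest reads in both libraries while Doxo and diMe-Doxo overlapped. The authors' log2 fold with Acla, 4.27 (FDR 2.46e-05), was the highest of any Acla region in the interval, beside 3.16 with Doxo and 3.38 with diMe-Doxo.

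The other 3 beta regions were weak. The region at 140474903-140475627 was listed for Doxo (9 and 18 reads, FDR 0.0895) and Acla (43 and 36 reads, FDR 0.0823), that at 140572571-140573194 for diMe-Doxo alone (25 and 26 reads, FDR 0.0492) and that at 140625689-140626302 for Acla alone (64 and 28 reads, FDR 0.0689). Each had 1 or 2 reads in a control library. From the middle of the beta cluster to its end, therefore, no region was listed for Doxo.

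Between beta and gamma, where RefSeq's gene order places SLC25A2, a mitochondrial ornithine carrier gene, and TAF7, which encodes a subunit of the general transcription factor TFIID, 3 regions were listed. The region at 140682823-140683885 had 116 and 116 Doxo reads, 99 and 66 with diMe-Doxo, 69 and 84 with Acla and 5 and 1 in the controls. On the control scale it stood at 58.3 and 57.8 with Doxo against 20.0 and 13.7 with diMe-Doxo, and Acla gave 9.77 and 12.2, with no overlap between the 3 drugs. The region at 140657559-140658651 had control-scale reads of 20.6 and 14.4 with Doxo, 14.3 and 8.54 with diMe-Doxo, and Acla gave 18.7 and 14.3, which overlapped both other drugs, while both Doxo libraries lay above both of diMe-Doxo. The region at 140659034-140659663 was listed for Acla alone, with 91 and 60 reads and an authors' log2 fold of 2.49.

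In gamma all 24 regions were gained with Doxo, 5 of them also with diMe-Doxo and 4 also with Acla. A peak had been called in both diMe-Doxo libraries at 4 of these 5, beside 70.1% of the whole diMe-Doxo list. For the 4 Acla regions both Acla libraries had a peak at 1, beside 73.5% of the whole Acla list. The median distance between neighbouring Doxo regions was 5.20 kb, beside 5.79 kb in alpha. Runs of 6 regions at 140730313-140752188 and of 8 at 140764374-140798929 covered spans of 21.9 and 34.6 kb. The same spans held 2 and 2 diMe-Doxo regions and 1 and 2 Acla regions.

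Alpha and gamma had similar median Doxo signal, while single control reads were more frequent in alpha, a difference given without a test. The median Doxo signal on the control scale was 16.1 and 18.9 in the 2 libraries for alpha and 16.8 and 17.7 for gamma. The control libraries held 1 read each at 15 of 23 Doxo regions (65.2%) in alpha and at 7 of 24 (29.2%) in gamma, beside 25.0% of all Doxo regions and 8.70% and 17.8% in the flanks. The median authors' log2 fold was 3.82 in alpha and 2.57 in gamma, beside 2.95 in the whole Doxo list. The part of the control reads in this difference was not tested. A peak had been called in both Doxo libraries at 22 of 23 alpha regions and 16 of 24 gamma regions, beside 63.4% of the list. The median widths were 688 and 692 bp, beside 803 bp in the list.

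The highest Doxo folds in gamma were at 140798042-140798929, 140788960-140790010 and 140730313-140731366, with authors' log2 folds of 4.66, 4.53 and 4.19. The first had 51 and 50 Doxo reads, 76 and 46 with diMe-Doxo, 62 and 34 with Acla and 1 and 1 in the controls. On the control scale its reads were 25.6 and 24.9, 15.4 and 9.58, and 8.78 and 4.95, with no overlap between the drugs. It also had the highest fold in gamma with diMe-Doxo (3.64) and with Acla (2.77). Neither Acla library had a called peak at this region, unlike both libraries of Doxo and of diMe-Doxo. The second had 34.2 and 35.4 control-scale reads in the Doxo libraries, above the 10.7 and 12.1 of diMe-Doxo, and was not listed for Acla. The third had 20.1 and 34.9 with Doxo, 10.5 and 8.75 with diMe-Doxo, and Acla gave 8.78 and 7.13.

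The strongest signal of gamma was at 140870538-140872564, 2026 bp wide, with 210 and 263 Doxo reads, 332 and 280 with diMe-Doxo, and Acla gave 267 and 248. On the control scale these were 106 and 131, 67.1 and 58.3, and 37.8 and 36.1, in that order without overlap. The 2 control libraries disagreed here, with 16 and 1 reads, and the authors' log2 folds of 3.77, 2.77 and 2.02 are over these same controls. Neither Acla library had a called peak at this region, unlike both libraries of Doxo and of diMe-Doxo, and the authors' Acla FDR was 0.0747. The widest gamma region, 2810 bp at 140855358-140858168, was a peak in both controls (7 and 19 reads) and was listed for Doxo alone with 86 and 77 reads, an authors' log2 fold of 1.66 (FDR 0.0720). The region at 140768424-140768955 was the only one of gamma listed for Doxo and Acla alone, with authors' log2 folds of 3.62 and 2.24.

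Of the Doxo regions in the interval, 39 of 51 had an authors' FDR of at most 0.05, beside 81.2% of the whole Doxo list. They were 19 of 23 in alpha and 17 of 24 in gamma. For diMe-Doxo the count was 14 of 15, beside 77.1%, and for Acla 10 of 16, beside 82.0%. Under stricter limits, an FDR up to 0.01 with a log2 fold from 2 upward, 29 of 51 Doxo regions passed, beside 48.8% of the list. By sub-cluster 17 of 23 Doxo regions passed in alpha, 1 of 2 in beta and 9 of 24 in gamma. Over the whole interval the counts were 6 of 15 with diMe-Doxo, beside 38.1%, and 6 of 16 with Acla, beside 42.8%.

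The 36 regions of Doxo alone were 18 in alpha and 18 in gamma. At regions outside the diMe-Doxo and Acla lists the signal of those drugs is not given, and a gain below the limits of the lists is possible. Among listed regions with 1 read in each control, the lowest authors' log2 fold was 2.13 for diMe-Doxo, 2.13 for Acla and 2.32 for Doxo. These are the lowest folds that passed, and not folds at which every such region would be listed. Listed Doxo folds at such regions could not lie under 2.32, so their place above 2.13 was fixed beforehand. Of the 36 regions, 17 had 1 read in each control, and their Doxo folds ran from 2.53 to 4.78 with a median of 3.88. They were 12 in alpha (median 3.96) and 5 in gamma (median 2.64).

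Doxo and diMe-Doxo, whose structures differ in the methylation of the sugar amine, were matched in dose and time and were compared at the 12 regions of the interval that both lists hold. The edgeR quasi-likelihood test with Benjamini-Hochberg adjustment over all 33140 regions in both lists called 8 of the 12 higher with Doxo (adjusted p at most 0.05), where 28.9% of all were called higher. It called 0 of the 12 lower, also at an unadjusted p under 0.05 and with DESeq2, where 2.72% of all were called lower. The median log2 difference of the 12 was 0.86, beside 0.28 over all regions. When TMM set the scale the median over all regions was -0.05 and that of the 12 was 0.53, and 6 of the 12 were called higher, beside 23.6% of all. DESeq2 called 5 of the 11 with an adjusted p higher, beside 23.2% of all, and edgeR without the second Doxo library called 5 of 12, beside 24.1%.

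The differences were largest at regions of alpha, gamma and the stretch between beta and gamma. The log2 difference was 2.68 ± 0.36 (SE, edgeR adjusted p = 5.36e-13) at 140263525-140264277 in alpha. It was 1.78 ± 0.26 (edgeR adjusted p = 3.49e-11) at 140682823-140683885, between beta and gamma. In gamma it was 1.61 ± 0.31 (edgeR adjusted p = 1.01e-06) at 140788960-140790010 and 1.51 ± 0.33 (edgeR adjusted p = 3.40e-05) at 140730313-140731366. In these 4 regions both Doxo libraries were above both diMe-Doxo libraries on the control scale, and the call held in each of 7 alternatives. The same order of libraries was also seen at regions with a less stable call or none, such as 140241714-140243127 and 140750366-140751447. Its share over all 33140 regions was not counted. The order comes from the same reads as the calls and adds no support to them.

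Smaller differences were called at 4 more regions, and each of these calls was lost in at least 1 alternative. The log2 difference was 0.92 ± 0.21 (edgeR adjusted p = 6.76e-05) at 140870538-140872564, a call lost without the second Doxo library (0.75, edgeR adjusted p = 0.0941). It was 1.02 ± 0.33 (edgeR adjusted p = 0.00708) at 140798042-140798929, lost with TMM (0.70, edgeR adjusted p = 0.0588), with DESeq2 and without the second diMe-Doxo library. At 140241714-140243127 it was 0.81 ± 0.26 (edgeR adjusted p = 0.00836), and with TMM 0.47 (edgeR adjusted p = 0.0768); the call was also lost with DESeq2 and without either Doxo library. At 140345786-140348831 it was 0.66 ± 0.20 (edgeR adjusted p = 0.00539) and was lost with DESeq2 (0.30, adjusted p = 0.157) and without either Doxo library.

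No difference was called at the other 4 regions, and their intervals were wide. The log2 difference was 0.61 (95% interval -0.11 to 1.33) at 140657559-140658651 and 0.65 (-0.12 to 1.43) at 140750366-140751447 in gamma, where Doxo had 34 and 26 reads and diMe-Doxo 42 and 51 (17.1 and 12.9 against 8.49 and 10.6 on the control scale). It was -0.23 (-1.23 to 0.78) at 140371933-140372687 in alpha and -0.26 (-0.96 to 0.45) at the beta region 140431011-140433097. A difference of more than 2-fold in favour of Doxo was thus outside the interval at the last 2 regions and inside it at the first 2. Acla was given at 20 µM and was not tested against the other drugs.

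**Figure D4:**
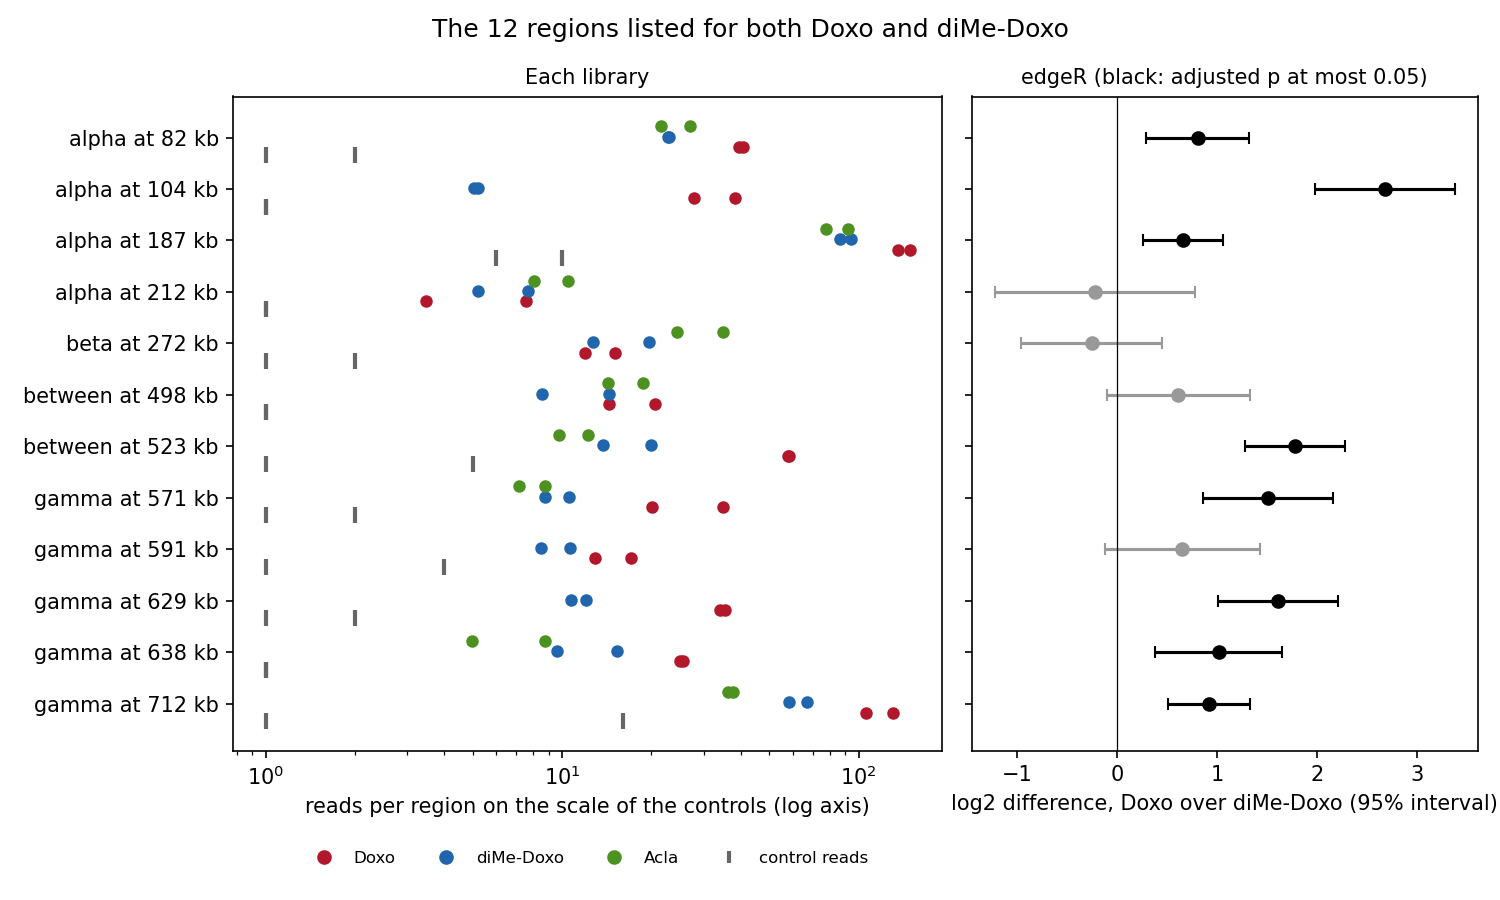
On the left, each point is a treated library at 1 of the 12 regions listed for both Doxo and diMe-Doxo, as reads per region on the scale of the controls (log axis), with grey ticks for the 2 control libraries, and rows are named by sub-cluster and distance from the start of the interval. On the right, points are edgeR log2 differences of Doxo over diMe-Doxo with 95% intervals, black where the adjusted p was at most 0.05: 8 of 12 are black and all 8 lie above 0.

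The last regions of gamma lie near the edge of the interval as chosen. The 3 at 140888824-140889007, 140893246-140893588 and 140896012-140896712 were listed for Doxo alone, with 36 and 38, 70 and 90, and 86 and 147 reads and authors' log2 folds of 2.23, 2.60 and 3.55. The controls held 1 and 7, 12 and 1, and 4 and 6 reads, so they disagreed at the first 2. A peak had been called in 0, 2 and 1 of the Doxo libraries, in that order. The 2 Doxo libraries differed most in relative terms at 140221325-140222204 in alpha, with 7 and 23 reads. On the scale of the controls the first Doxo library was higher at 24 regions and the second at 27. With the other drugs the first library was higher at 10 of 15 diMe-Doxo and 15 of 16 Acla regions. Over the whole lists the first library was likewise higher at 39468 of 52784 diMe-Doxo and 48202 of 61295 Acla regions. The second Doxo library was higher at 40709 of all 66720 Doxo regions.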

How the data were processed

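ATAC-seq of K562 cells was analysed from 3 lists of regions gained over control. Per the submitters' processing notes, DiffBind and GRCh37 were used, while an aligner is not given in the sources read. Each list gives, per region, the deposited signal of each library (reads times a library factor), the authors' log2 fold and the authors' p-value and FDR. The highest p-value was 0.05 and the lowest log2 fold 1.5. Dividing the signal by its smallest step per library gave whole reads (within 0.1 reads) for 100% of values in all 12 columns. An automated screen that starts from the lowest value did not recognise these steps in the 4 treated columns of diMe-Doxo and Acla, whose lowest values are several reads. Control reads were identical between lists at shared regions. Reads were put on the control scale by the library factor over the geometric mean of the 2 control factors.

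Regions overlapping the interval by at least 1 bp were counted, with 1 Mb on each side. Doxo was compared with diMe-Doxo at 33140 regions by edgeR 4.0.16 (quasi-likelihood, R 4.3.3) with the authors' factors, and with DESeq2 1.42.0, TMM, a filter at a mean of 20 reads and each library left out as alternatives; counts were repeated under stricter limits, shifted edges and flanks of 0.5 Mb. The edgeR test ran on simulated data first, where it found 95% of 4-fold but only 30% of 2-fold differences. Of its calls there, 4.58% were false. Python 3.11.15, pandas 2.3.3, scipy 1.17.1 and matplotlib 3.10.9 were used. Described in full were, per sub-cluster and list, the 3 regions of highest authors' fold, the widest region and each region called between the drugs; others were picked after their values were seen. The members and lists were chosen with earlier results of these data known. Lists of genes outside the interval were not analysed here.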

Additional observations from a re-analysis of the deposited data

How the results depend on the processing

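Among counts and levels, 54 values under an alternative stayed within their limits and 19 did not, and the cause was not tested. Under stricter limits on the authors' values (FDR up to 0.01, log2 fold from 2 upward) the interval held 29 Doxo, 6 diMe-Doxo and 6 Acla regions, where 48.8%, 38.1% and 42.8% of the whole lists passed. Under the same limits alpha held 17, 2 and 4 regions of Doxo, diMe-Doxo and Acla, beta held 1, 1 and 1, and gamma held 9, 2 and 0. Gamma thus held fewer Doxo regions than alpha under these limits, but 24 against 23 without them. The median signal over the regions, 23.7 with Doxo, 27.6 with diMe-Doxo and 24.4 with Acla as deposited, was 16.8, 12.5 and 9.25 on the control scale, so signal as deposited cannot be compared between lists. For Doxo against diMe-Doxo, 5 of 11 regions with an adjusted p were higher by DESeq2, and 5 to 8 of 12 by edgeR when a library was left out. Regions lower with Doxo, 900 of all, numbered 3508 with TMM, 1514 with DESeq2 and 158 to 815 when a library was left out. The difference at 140371933-140372687 turned to 0.22 without the second Doxo library and 0.08 without the first diMe-Doxo library (range -0.88 to 0.22 over all alternatives), and that at 140431011-140433097 turned to 0.089 without the first diMe-Doxo library (range -0.59 to 0.09 over all alternatives, and from -0.54 when a library was left out). Leaving out a library left 1 in its group, which was assumed to vary like the other group. No paired analysis was possible because the labels give the libraries no replicate numbers. Regions under the limits of a list, losses and full library depth were not analysed here.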
